A study of Homo sapiens with 11 samples.

Results

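Compact genes are taken here as the genes covered by 4 to 8 exon probe sets on the array, where a probe set is a small group of probes for a stretch of an exon. A probe set counted if it carried that gene symbol alone and had an estimate on all 11 arrays, so the choice rested on how a gene is covered and not on its level or its change. The rule chose 21525 probe sets of 3519 genes, out of 347084 such probe sets of 19459 genes and 1399022 probe sets in the whole table. Of these genes, 618 had 4 probe sets, 653 had 5, 708 had 6, 780 had 7 and 760 had 8. Just outside the rule were 492 genes with 3 probe sets and 741 genes with 9.

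The cells were T-REx-293, made from the human kidney line HEK293 and fitted with an expression system that tetracycline switches on. All groups shared a stably kept plasmid for the green fluorescent protein (GFP) and 72 h of tetracycline at 2.5 µg/mL. The control group held 2 arrays of an empty vector and 3 arrays of an shRNA against GFP, and the knockdown group 3 arrays for each of 2 hairpins directed at Tat-SF1, here named shRNA A and shRNA B. The design text counts biological triplicates and leaves out replicate 3 of the empty vector, which failed quality control. The sources used here do not say whether the stable cells were clones, and p-values measure only the spread between these samples.

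Tat-SF1, the product of HTATSF1, takes part in transcription elongation and associates with the U2 particle of the spliceosome. Genes with few exons include the histone genes, many genes of ribosomal proteins and small respiratory chain subunits, and intronless receptor families such as the olfactory receptors. Replication-dependent histone genes have no introns, and their transcripts are not polyadenylated. Housekeeping genes of this kind are often expressed at high levels in dividing cells, whereas olfactory receptors and epidermal keratin-associated proteins are known for their restricted expression.

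The comparison of knockdown with control asked which transcripts change when Tat-SF1 is depleted. HTATSF1 itself, which is not compact, had gene values of 8.32 to 8.63 on the control arrays and 8.11 to 8.29 on the knockdown arrays, on the deposited log2 scale. It fell by 0.30 (SE 0.0515, adjusted p = 0.0483), and its groups did not overlap. HTATSF1 was called in 1 of the 11 fits that left out an array, where its adjusted p ran from 0.0164 to 0.103. Its adjusted p was 0.0938 with dim probe sets included in the gene value, 0.354 with the suffix described below as a block and 0.117 without the brightest and the dimmest array. Of the 6 HEK293 markers, VIM, NEFL, KRT8 and KRT18 lay over 9 in the controls, and NEFM and PAX2 did not. No marker of fibroblasts, endothelium, blood, liver or carcinoma with a gene value lay over 9. Only 1 of the 6 blood markers and 3 of the 5 liver markers had such a value. The 5 controls averaged 9.324 ± 0.0412 (SD, n = 5) over their 3000 brightest genes, and the 6 knockdown arrays 9.257 ± 0.0447 (SD, n = 6, exact permutation p = 0.0303, two-sided). The brightest array was GFP shRNA replicate 1 and the dimmest was shRNA B replicate 1. The part of this difference in the falls below was not tested. The array names of shRNA A replicate 3 and of all 3 shRNA B arrays carry a suffix that no control carries, and what it marks is not given in the sources used here. For this reason the 2 shRNA A arrays without it are also set against the 5 controls below.

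The promoters of 3 compact genes that fell in the knockdown are shown because TMSB10 and NME3 hold matches to the GC box alone and H2AX holds matches to the other letters alone. Each is the 250 bases before the annotated start, 5′ to 3′ on the gene's strand, from RefSeq on GRCh38.p14. Capitals mark matches, on either strand and with overlaps merged, to the letters TATAAA (the TATA box), CCAAT (the CCAAT box) and GGGCGG (the GC box). TMSB10 lies at chr2:84905406-84905655 on the + strand, NME3 at chr16:1771544-1771793 on the - strand, and H2AX at chr11:119095466-119095715 on the - strand.
TMSB10: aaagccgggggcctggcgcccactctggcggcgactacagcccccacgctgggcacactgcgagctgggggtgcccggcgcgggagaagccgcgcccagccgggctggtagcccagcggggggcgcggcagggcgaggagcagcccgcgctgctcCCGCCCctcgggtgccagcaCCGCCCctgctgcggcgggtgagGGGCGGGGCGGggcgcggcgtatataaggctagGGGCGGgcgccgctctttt
NME3: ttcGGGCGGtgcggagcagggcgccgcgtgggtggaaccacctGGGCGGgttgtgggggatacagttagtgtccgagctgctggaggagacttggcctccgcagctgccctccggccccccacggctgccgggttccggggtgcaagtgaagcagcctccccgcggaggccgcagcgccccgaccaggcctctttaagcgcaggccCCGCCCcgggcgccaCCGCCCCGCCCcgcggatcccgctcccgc
H2AX: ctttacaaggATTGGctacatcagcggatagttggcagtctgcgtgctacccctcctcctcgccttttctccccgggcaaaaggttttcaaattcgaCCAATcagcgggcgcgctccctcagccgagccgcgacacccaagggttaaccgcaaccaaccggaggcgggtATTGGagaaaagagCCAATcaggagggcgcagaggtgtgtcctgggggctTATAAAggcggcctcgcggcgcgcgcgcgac

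The windows of TMSB10 and NME3 each held 5 GC box matches and no match to the other letters. Only exact matches were counted, so the similar stretch tatataag in the TMSB10 window was not marked, and the lack of a match does not show that such a box is absent. The window of H2AX held 4 CCAAT box matches, 1 TATA box match and no GC box match. Promoter entries were found for 10 of the 11 called compact genes, with 12 windows in all, of which 8 held a GC box match. Over all 35116 windows of the table, 42.6% held a GC box match, 32% a CCAAT box match and 10.7% a TATA box match. Over the windows of compact genes with a gene value, the shares were 59.3% for the GC box and 8.79% for the TATA box, and over those of compact genes without a value they were 37.5% and 16.2%. Longer genes with a value had shares of 57.9% and 7.12%. A match is only a description of the letters.

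Compact genes were dimmer than longer ones as measured by this array. Of their probe sets, 48.5% had a mean that reached the median of all probe sets in the table, 7.9066 on the log2 scale, a level at which dim probe sets crowd. The share was 61% in genes with 9 to 16 probe sets, 68.4% with 17 to 32 and 70.2% with 33 or more. A gene value, the median of a gene's probe sets at or above that level, was given only to genes with at least 4 of them, and 1284 of the 3519 compact genes (36.5%) had it. Among genes with 4 probe sets 69 had a value, and among genes with 8 there were 444. A gene with 4 probe sets needed all of them at that level. The share with a value thus depends on the number of probe sets by the rule itself and does not measure dimness. Of the compact genes with a value, 15% had a control level over 9, against 12.6% of all 14500 genes with a value. Their median control level was 8.21, against 8.23 over all. These genes had passed a filter on level, so the values do not describe compact genes as a whole.

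**Figure D1:**
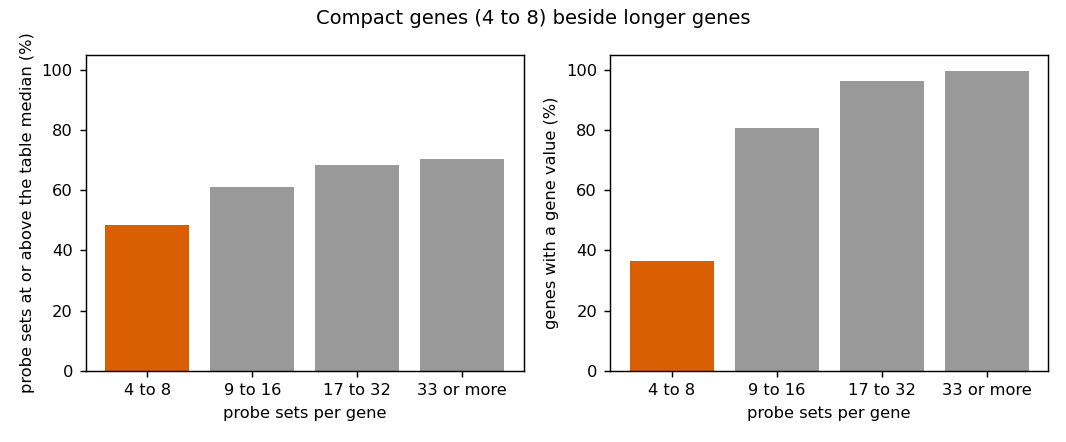
Bars give, by the number of probe sets per gene, the percent of probe sets at or above the table median (left) and the percent of genes with a gene value (right). The compact genes, in orange, are lowest in both, at 48.5% and 36.5%, and genes with 33 or more probe sets reach 70.2% and 99.7%. The right share depends on the number of probe sets by the rule, since a value needed at least 4 of them at that level.

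The kinds of gene differed too. By the RefSeq annotation, 2871 compact genes (81.6%) were protein-coding, against 90.6% of all genes. Long noncoding RNAs made up 8.35% of compact genes and 3.3% of all genes, and pseudogenes 8.58% and 4.28%. A gene value was reached by 38.3% of the compact protein-coding genes, 39.7% of the pseudogenes and 16.7% of the long noncoding RNAs. All 11 called genes were protein-coding.

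Among named classes, the largest was the olfactory receptors, the odorant receptors of the nose, with 200 compact genes out of 397 in the class. Only 36 of them had a value, and 45.8% of their probe sets lay at or above the table median. The cytosolic ribosomal proteins, which build the ribosome outside mitochondria, had 15 compact genes, and 90.5% of their probe sets lay at or above that level. For the replication-dependent histones, which package newly made DNA, the share was 85.5% over 13 genes. For subunits of oxidative phosphorylation, the respiratory chain and ATP synthase, it was 76.9% over 37 genes. Chemokines, which attract immune cells, had a share of 33.1% over 28 genes, and cornified envelope proteins of the epidermis had 36.4% over 11 genes, none with a gene value. No cornified envelope or taste receptor gene is therefore in the comparisons of gene values below.

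In the knockdown, 11 compact genes passed the test, with an adjusted p under 0.05 from limma, and all of them were lower. They were TMSB10, APRT, RAC3, NME3, FKBP1A, H2AX, IGFBP2, ZMYND19, NPTX2, RPUSD2 and TTC9. This is 0.857% of the 1284 compact genes tested, beside a background of 0.193% of all 14500 genes called lower. Compact genes made up 33.3% of the 33 genes called in all and 8.86% of the genes tested. The shift of compact genes as a whole was small, with a median change of -0.014 on the log2 scale against -0.017 over all genes, and 65.2% of them had a lower mean against 67.3% of all genes. An unadjusted p under 0.05 was reached by 17.9% of compact genes and 15.2% of all genes. All 6 knockdown arrays lay below all 5 controls in 30 compact genes, where the background over all genes was 2.02%, and above them in 2 compact genes, where it was 0.214%. In bulk RNA, fewer cells of a type and less RNA per cell cannot be told apart.

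The calls were sensitive to single arrays. Leaving out each array in turn gave 11 calls without empty vector replicate 2 and 1 to 5 without any of the other 10 arrays. No compact gene was called without both GFP shRNA replicate 1 and shRNA B replicate 1 (197 with an unadjusted p under 0.05), with the suffix of the array names as a blocking term (146), or with the 2 shRNA A arrays without the suffix alone (136). With the brightness floor raised by 0.5, 21 of 313 compact genes were called, all lower, beside a background of 3.4% of all 7232 genes with a value under that floor. With dim probe sets included in the gene value, NME3 alone of the 11 genes stayed called (adjusted p = 0.0365). The adjusted p of the others then ran from 0.0537 for ZMYND19 to 0.278 for RPUSD2. On the 2 shRNA A arrays without the suffix the changes of the 11 genes ran from -0.07 for TTC9 to -0.43 for RAC3, all lower.

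**Figure D2:**
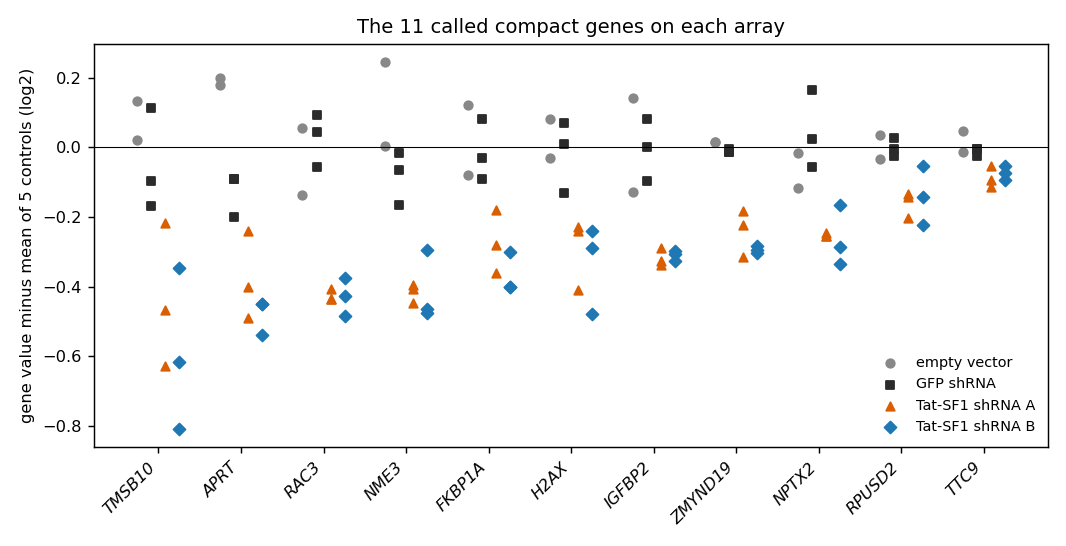
Each point is the gene value of 1 array minus the mean of the 5 control arrays, in log2, for the 11 called compact genes. Circles and squares are the control constructs, and triangles and diamonds are the Tat-SF1 shRNAs. In every gene all 6 knockdown points lie below all 5 control points, and those of RAC3 and IGFBP2 are close together.

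TMSB10 encodes thymosin beta 10, a small protein that binds actin monomers. Its gene values were 10.57 and 10.46 with the empty vector and 10.55, 10.34 and 10.27 with GFP shRNA. With shRNA A they were 10.22, 9.97 and 9.81, and with shRNA B they were 9.63, 9.82 and 10.09. The groups did not overlap, although shRNA A replicate 1 lay close to the lowest control. TMSB10 had the largest change of the called compact genes, and fell by 0.51 (SE 0.098, adjusted p = 0.0487), a ratio of 1.43. It was called in 1 of the 11 fits that left out 1 array. With dim probe sets included its change was also -0.51, and it was not called (adjusted p = 0.107).

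RAC3 encodes a small GTPase that regulates actin. It had values of 9.67 and 9.86 with the empty vector and 9.90, 9.85 and 9.75 with GFP shRNA. The shRNA A arrays lay at 9.37, 9.37 and 9.40, and the shRNA B arrays at 9.32, 9.43 and 9.38. The 6 knockdown arrays thus lay within a narrow range below all controls. RAC3 fell by 0.43 (SE 0.0569, adjusted p = 0.017), and among the 11 called genes it alone was called without any single array (11 of 11 fits). With the mean of its probe sets its change was -0.20 (adjusted p = 0.0425), and without the brightness filter it was -0.32 and not called (adjusted p = 0.056). TTC9, a protein with tetratricopeptide repeats, fell by only 0.08 (SE 0.0154, adjusted p = 0.0487). Its controls lay between 8.01 and 8.08 and its knockdown values between 7.92 and 7.98, near the dim level of 7.9066. Without the brightness filter TTC9 changed by -0.07 and was not called (adjusted p = 0.116).

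APRT, adenine phosphoribosyltransferase of purine salvage, had control values of 10.15, 10.13, 9.86, 9.75 and 9.86. Its knockdown values had a lowest of 9.41, a median of 9.50 and a highest of 9.71. The empty vector arrays were the highest of the controls, and the groups did not overlap. The mean of APRT was 10.14 with the empty vector, 9.83 with GFP shRNA and 9.52 in the knockdown. GFP shRNA minus empty vector was -0.32 for APRT (unadjusted p = 0.00516 and adjusted p = 0.947 from limma). Against the pooled controls APRT fell by 0.43 (SE 0.0814, adjusted p = 0.0487). NME3, a member of the nucleoside diphosphate kinase family, had control values of 9.30, 9.06, 8.99, 8.89 and 9.04. Its shRNA A values were 8.66, 8.65 and 8.61 and its shRNA B values 8.76, 8.58 and 8.59, again below all controls. It fell by 0.41 (SE 0.0646, adjusted p = 0.0239) and stayed called in 5 of the 11 fits that left out 1 array. GFP shRNA minus empty vector was -0.21 for NME3 (unadjusted p = 0.0348 and adjusted p = 0.947 from limma). The neighbour of NME3 on chromosome 16, MRPS34 of the mitochondrial ribosome, was lower by 0.21 with no overlap and was not called (adjusted p = 0.162).

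H2AX, the histone H2A variant that is phosphorylated at DNA breaks, had control values of 9.01, 9.12, 9.05, 9.11 and 8.91. The shRNA A arrays gave 8.63, 8.81 and 8.80, and the shRNA B arrays gave 8.56, 8.75 and 8.80. All knockdown arrays lay below the lowest control. H2AX fell by 0.31 (SE 0.0591, adjusted p = 0.0487) and was called in 0 of the 11 fits that left out 1 array, where its adjusted p ran from 0.0509 to 0.122.

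IGFBP2, which binds insulin-like growth factors, had control values of 9.29, 9.02, 9.23, 9.05 and 9.15, and its knockdown arrays lay between 8.81 and 8.86 with a median of 8.83. It fell by 0.31 (SE 0.0546, adjusted p = 0.0483). NPTX2, a neuronal pentraxin, had control values of 8.63, 8.53, 8.81, 8.59 and 8.67 and knockdown values from 8.31 to 8.48 with a median of 8.39. It fell by 0.26 (SE 0.0505, adjusted p = 0.0487). In neither gene did the groups overlap.

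FKBP1A, the prolyl isomerase that binds the drug FK506, fell by 0.32 (SE 0.0541, adjusted p = 0.0483), from controls at 8.65, 8.85, 8.70, 8.81 and 8.64 to a knockdown median of 8.40. ZMYND19, a protein with an MYND zinc finger, had controls at 9.19, 9.19, 9.17, 9.16 and 9.16, and its knockdown arrays lay from 8.86 to 8.99. It fell by 0.26 (SE 0.0456, adjusted p = 0.0483). RPUSD2, related to pseudouridine synthases that modify RNA, fell by 0.15 (SE 0.0274, adjusted p = 0.0487). Its controls lay between 8.11 and 8.18 and its knockdown values between 7.92 and 8.09, also near the dim level. Without the brightness filter RPUSD2 changed by -0.07 and was not called (adjusted p = 0.278).

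A gene value of a compact gene can rest on very few probe sets. In 56 of the 1284 compact genes with a value (4.36%) a single probe set was the middle one on all 11 arrays, against 0.598% of longer genes. RAC3 and TMSB10 were among them. Probe set 3738478 of RAC3 was the middle of 7 on every array and also the only compact probe set called on its own. Its change was -0.43 (SE 0.0442, adjusted p = 0.0345), and the background of called probe sets was 0.0115%. Leaving out empty vector replicate 1 gave 2 called compact probe sets, leaving out shRNA B replicate 3 gave 1, and leaving out any of the other 9 arrays gave 0. The other 6 used probe sets of RAC3 changed by 0.12 to -0.34, and 5 of them were lower. In TMSB10 the middle probe set, 2491292, changed by -0.51, and all 5 used probe sets were lower, by -0.24 to -0.51.

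In NME3 and IGFBP2 all used probe sets were lower. The 4 used probe sets of NME3 changed by -0.48, -0.36, -0.51 and -0.34, and in each of them all knockdown arrays lay below all controls. The 4 of IGFBP2 changed by -0.44, -0.41, -0.23 and -0.19. In FKBP1A the used probe sets differed in direction. Its used probe sets 3894623 and 3894625 changed by -0.43 and -0.19, while the other 4 changed by -0.04 to 0.19. With the mean of its probe sets in place of the median, FKBP1A changed by -0.05 and its adjusted p was 0.501. Probe sets of FKBP1A could also bind transcripts of closely related genes, and their part in the result was not tested. By the mean, the calls of ZMYND19, NPTX2, RPUSD2 and TTC9 were lost as well (adjusted p from 0.0705 to 0.194), and their changes were -0.15, -0.19, -0.08 and -0.07.

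**Figure D3:**
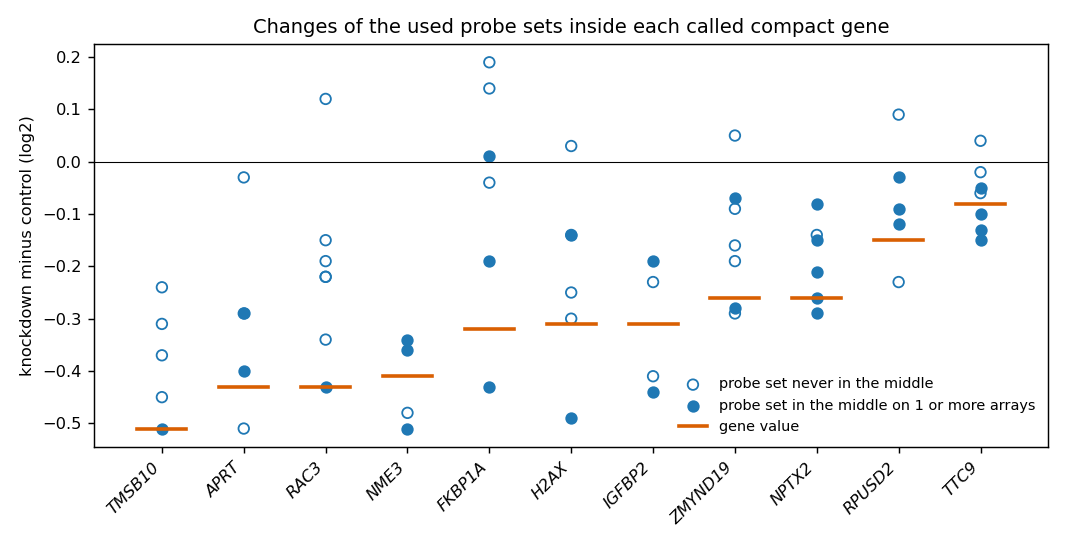
Circles give the knockdown minus control change in log2 of each used probe set of the 11 called genes, filled where the probe set was in the middle on at least 1 array, and orange lines give the change of the gene value. All used probe sets lie below 0 in TMSB10, APRT, NME3, IGFBP2 and NPTX2, whereas those of FKBP1A run from -0.43 to 0.19.

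The 12 largest further falls and 2 rises had groups that did not overlap but did not pass the test, and are given as values. Of the falls, 5 were subunits of the respiratory chain. They belong to the oxidative phosphorylation class, which held 29 of the 1284 compact genes with a value. COX6B1, of cytochrome c oxidase, had controls at 10.62, 10.71, 10.67, 10.60 and 10.50 and knockdown arrays from 10.19 to 10.47 (change -0.30, adjusted p = 0.0686). NDUFA8, of complex I, had controls at 8.70, 8.47, 8.66, 8.58 and 8.56 and knockdown arrays from 8.25 to 8.45 (change -0.24, adjusted p = 0.0529). UQCRQ changed by -0.26, COX8A by -0.21 and UQCR10 by -0.20. The 6 used probe sets of COX6B1 were all lower, as were the 6 of NDUFA8 and the 6 of COX8A. RASL10B, a Ras-like GTPase, had the lowest adjusted p of these falls, 0.0518, with a change of -0.23 and all of its 7 used probe sets lower.

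HES4, a repressor of the hairy family, changed by -0.41 (adjusted p = 0.0701), with controls at 8.43, 8.80, 8.37, 8.44 and 8.37 and knockdown arrays from 7.78 to 8.37, so that the groups only just failed to touch. CEBPG, a partner of ATF4 in the amino acid response, changed by -0.34 (adjusted p = 0.0723), with controls at 9.85, 9.83, 10.20, 9.86 and 9.83 and knockdown arrays from 9.39 to 9.71. Without the brightness filter CEBPG changed by -0.12 (adjusted p = 0.609). The remaining falls were CYSTM1 (-0.28), DPM3 of dolichol phosphate mannose synthesis (-0.28), CMTM8 (-0.23) and MRPS34. Without the filter DPM3 changed by -0.00 (adjusted p = 0.984). The rises were LOC100129942, with a change of 0.18 (adjusted p = 0.12), which was 0.00 without the filter, and TTPA, the tocopherol transfer protein, with a change of 0.03 at values up to 7.96, near the dim level.

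The cytosolic ribosomal proteins were lower in 13 of 14 compact genes, with a median change of -0.14 beside -0.017 over all genes. None was called by limma, and 5 had an unadjusted p under 0.05, 4 of them lower. Over all genes, 15.2% had such a p. The median change was -0.0879 with shRNA A, -0.182 with shRNA B and -0.0702 on the 2 shRNA A arrays without the suffix. The value of -0.017 is a median over genes of all levels. The 3000 brightest genes averaged 9.324 in the controls and 9.257 in the knockdown arrays. The part of that difference in the medians of this and the following classes was not tested. RPL30, of the large subunit, had controls at 10.78, 10.60, 10.64, 10.57 and 10.65. Its shRNA A values were 10.69, 10.57 and 10.52 and overlapped the controls, while its shRNA B values were 10.04, 10.20 and 10.33 and lay below all other arrays. Its change was -0.05 with shRNA A and -0.46 with shRNA B, a difference of -0.40 (SE 0.0971, adjusted p = 0.999 and unadjusted p = 0.000867 from limma). On the 2 shRNA A arrays without the name suffix, RPL30, RPL36 and RPL35A changed by -0.02, -0.02 and 0.01, against -0.46, -0.40 and -0.32 with shRNA B. The shRNA A array that carries the suffix, replicate 3, lay at 10.52 for RPL30, 9.24 for RPL36 and 11.76 for RPL35A, below all controls in each. For RPL36, shRNA A replicate 1, which has no suffix, also lay below all controls, at 9.59 against a lowest control of 9.60. Replicate 3 is a single array, and all shRNA B arrays carry the suffix, so the parts of suffix and hairpin in these values were not tested. RPS20, of the small subunit, was alike with both shRNAs, at -0.22 and -0.20, and changed by -0.17 on the 2 shRNA A arrays without the suffix. Ribosomal protein genes have many processed pseudogenes, and binding of their transcripts was not tested.

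The replication-dependent histones were lower in 9 of 9 compact genes, with a median change of -0.108 and none called. An unadjusted p under 0.05 was reached by 4 of them, beside 15.2% of all genes. H1-2, a linker histone, had controls at 10.33, 10.13, 9.84, 10.12 and 10.06 and knockdown arrays at 9.47 to 10.05 with a median of 9.73, which overlapped (change -0.37, adjusted p = 0.122). H1-4 changed by -0.17, H2BC11 by -0.17 and H2AC25 by -0.15. The median change was -0.0608 with shRNA A, -0.21 with shRNA B and -0.0951 on the 2 shRNA A arrays without the suffix. H2AX, outside this class, changed by -0.29 and -0.33 with the 2 shRNAs.

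Of the subunits of oxidative phosphorylation, 23 of 29 were lower, with a median change of -0.074, none called and 11 with an unadjusted p under 0.05, all lower. In 5 of them the groups did not overlap, with all knockdown arrays lower. Over all genes with a value, 2.02% had such a fall without overlap, and 15.2% had an unadjusted p under 0.05. The median change was -0.0386 with shRNA A, -0.111 with shRNA B and -0.0427 on the 2 shRNA A arrays without the suffix. NDUFA7 and NDUFB7 of complex I changed by -0.35 and -0.29 with overlapping groups. The mitochondrial ribosomal proteins were lower in 15 of 19, with a median change of -0.0721, none called and 6 with an unadjusted p under 0.05, all lower. MRPS24 changed by -0.35 and MRPL58, which releases stalled chains, by -0.20. The median was -0.0206 with shRNA A, -0.124 with shRNA B and -0.0138 on the 2 unsuffixed shRNA A arrays.

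**Figure D4:**
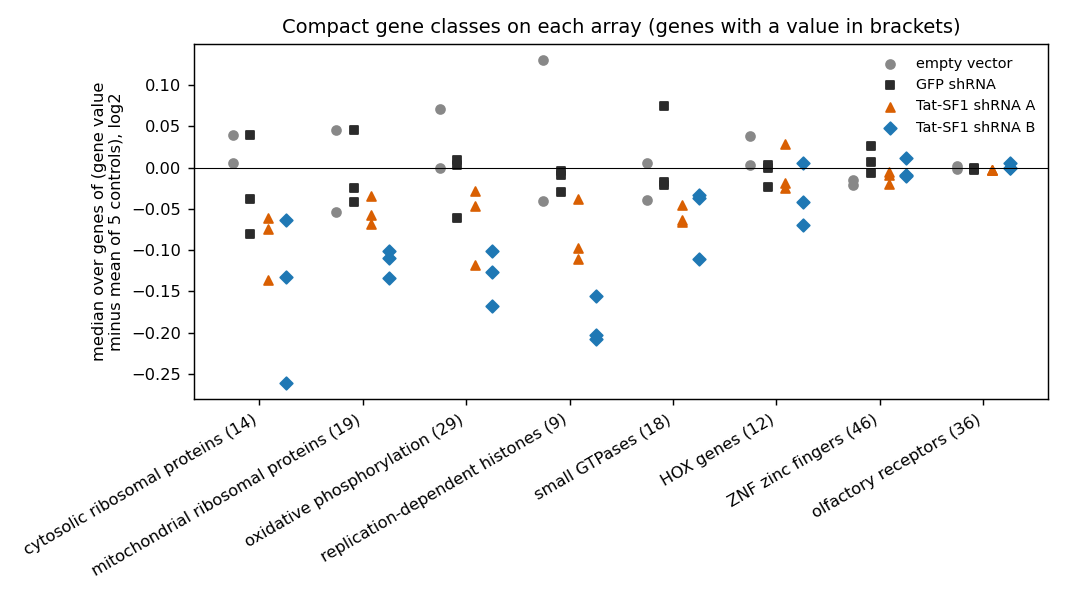
Each point is the median, over the compact genes of a class, of the gene value on 1 array minus the mean of the 5 controls, in log2. In the replication-dependent histones the shRNA B arrays lie between -0.207 and -0.156 and the shRNA A arrays between -0.111 and -0.038, while the olfactory receptors stay within 0.005 of 0 on every array.

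Small GTPases, which act as molecular switches, were lower in 15 of 18 compact genes with a value, and 1 was called, RAC3. Their median change was -0.0681, beside -0.017 over all genes. Without the brightness filter 18 of the 28 compact genes of this class were lower, with a median of -0.0148. RHOB changed by -0.40 with overlapping groups (adjusted p = 0.13) and HRAS by -0.14. Chaperones and prolyl isomerases were lower in 6 of 9, with a median of -0.0315 and 1 called, FKBP1A. FKBP2 changed by -0.17, PPIC by -0.16 and HSPB1 by -0.15. The 3 actin-binding proteins with a value split. TMSB10 fell, CFL1 (cofilin) changed by -0.06 and MARCKSL1 by 0.07.

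Regulators of transcription differed by class. The 3 ATF4 and C/EBP factors with a value, CEBPE, CEBPG and CEBPA, were all lower, at -0.37, -0.34 and -0.12. Immediate early genes, which respond quickly to stimuli, were lower in 6 of 7 with a median of -0.0788. GADD45A changed by -0.26 and BTG2 by -0.24, both growth arrest genes, and EGR4 by 0.14. HOX genes, which pattern the body axis, were lower in 9 of 12 with a median of -0.0194, and HOXD10 had the largest change, -0.16. The 4 SOX and FOX factors with a value were lower, and SOX2 changed by -0.18. Without the brightness filter 7 of the 21 compact genes of that class were lower, with a median of 0.0108. ZNF zinc finger genes were lower in 26 of 46 with a median of -0.00423, and ZNF768 changed by -0.17. None of these genes was called in the pooled comparison.

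The olfactory receptors, whose values stayed near the dim level, were lower in 18 and higher in 18 of 36, with changes from -0.019 to 0.0368. OR10A3 had the largest change, 0.04, with values between 7.92 and 8.02. Clustered protocadherins, neuronal adhesion proteins, were higher in 7 of 10 with a median of 0.00762. The keratin-associated proteins, of hair, were higher in 5 of 5 with a median of 0.103, where KRTAP5-3 changed by 0.19, and the 3 S100 calcium-binding proteins were higher with a median of 0.111, at 0.187 with shRNA A and 0.0272 with shRNA B. These few members passed the brightness filter, and without it the medians over the compact genes of these families were 0.00575 and 0.00947. Members of these families share sequence, so their values may mix. MT1L, named in the metallothionein family, changed by 0.33 (adjusted p = 0.185), at 0.51 on the shRNA A arrays and 0.15 on the shRNA B arrays. Defensins, orphan GPR receptors, proteasome subunits, Sm and LSM proteins, chemokines, and claudins and connexins held no called gene, and their median changes ran from -0.0442 to 0.0381.

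Each shRNA alone gave 1 call among compact genes. With shRNA A it was CEBPE, a C/EBP factor of granulocytes, and the background of called genes was 0.0069%. Its controls lay at 8.49, 8.83, 8.45, 8.61 and 8.63, its shRNA A arrays at 7.94, 8.01 and 8.11, and its shRNA B arrays at 8.37, 8.52 and 8.45. The shRNA A arrays were below all other arrays, and the shRNA B arrays overlapped the controls. CEBPE fell by 0.58 with shRNA A (SE 0.0758, adjusted p = 0.0199) and changed by -0.15 with shRNA B. The difference of shRNA B minus shRNA A was 0.43 (SE 0.0847, unadjusted p = 0.000135, adjusted p = 0.654). On the 2 shRNA A arrays without the suffix its change was -0.63. The call was lost without GFP shRNA replicate 2, GFP shRNA replicate 3, shRNA A replicate 1 or shRNA A replicate 3 (0 calls each).

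With shRNA B the call was RAC3, which fell by 0.43 (SE 0.0707, adjusted p = 0.0384), and the background was 0.0621%. With shRNA A its change was also -0.43 (adjusted p = 0.104). The call with shRNA B was kept without empty vector replicate 1 or GFP shRNA replicate 1 and lost (0 calls) without any of the other 9 arrays. Both comparisons share the 5 controls. Between shRNA B and shRNA A limma called 0 compact genes, and the background was 0%, with a smallest adjusted p of 0.654 and 81 compact genes at an unadjusted p under 0.05. Leaving out shRNA A replicate 2 gave 1 call. Between GFP shRNA and the empty vector limma called 0 compact genes, with 72 at an unadjusted p under 0.05, beside a background of 0.0069%. Without empty vector replicate 1 there was 1 call. The median change between the control constructs was 0.001 over compact genes and 0.016 over all genes.

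Exon usage was described by the splicing index, the log2 value of a probe set minus its gene value. Over 6771 used probe sets of compact genes 1 passed, beside a background of 0.00317% of all 221020. It was probe set 2405002 of MARCKSL1, an actin-linked membrane protein, which lay at 10.28, 10.34, 10.25, 10.41 and 10.26 on the control arrays. Its shRNA A values were 9.73, 9.70 and 9.68 and its shRNA B values 9.87, 9.63 and 10.06, all below the controls. Its index fell by 0.60 (SE 0.0649, adjusted p = 0.038), while the other 3 probe sets of the gene changed by 0.15, -0.10 and 0.04. The call was lost without any array other than GFP shRNA replicate 1, whose removal gave 8 calls. An index shows that a gene changed unequally, without saying which stretch moved. The index of a probe set that is always the middle one is 0 by construction, as in RAC3 and TMSB10, and 56 of the 135 such probe sets were in compact genes.

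Over the 1284 compact genes with a value, all used probe sets were lower in 189 genes and higher in 38. These counts are not set beside longer genes here, and 67.3% of all genes had a lower mean. Over all 21525 probe sets, without a filter on brightness, the median change was -0.003 and 53.6% had a lower mean, against -0.009 and 58.2% of all probe sets tested. An unadjusted p under 0.05 was reached by 8.87% of them and by 10.9% of all.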

How the data were processed

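Total RNA of 11 T-REx-293 samples was measured on Affymetrix Human Exon 1.0 ST arrays. The deposited table holds log2 values of 1399022 probe sets. For the authors' values, software, normalization and build are not given in the sources. The array medians lie between 7.901 and 7.904. The table's scale was read from the values, and 13190 to 15431 probe sets per array had no estimate. The number of arrays limits the precision.

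Probe sets were assigned through the platform's gene symbols: 355799 carried 1 symbol, 15195 several and 1028028 none in the table used. Symbols were updated through RefSeq (16450 current, 2965 updated, 121 kept). Since the build behind the array's values is not named, coordinates are given only for the RefSeq promoter windows.

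The gene value was the median of probe sets with 1 symbol, an estimate on all arrays and a mean at or above the table median, with at least 4 per gene (14500 genes, 221020 probe sets). limma 3.58.1 in R 4.3.3 (lmFit, eBayes with trend) tested all genes or probe sets, with Benjamini-Hochberg adjustment over all of them, and every adjusted p comes from it. Features with an adjusted p under 0.05 were called. Fits over all 11 arrays had 2 levels for the pooled comparison, 3 for each shRNA, and 4 for the control constructs. Single values were compared by exact permutation over 462 splits. The tests were checked on simulated data.

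Named genes were HTATSF1, the called compact genes, up to 12 falls and 12 rises not called whose groups did not overlap, the called genes of other comparisons, and 2 to 4 of largest change per class. The classes were symbol patterns. Members and lists were chosen with earlier results of these data known. The alternatives were no filter on dim probe sets, a floor higher by 0.5, the mean of probe sets, quantile normalization, no trend, symbols as listed, replicate and name suffix blocks, and leaving out each array. Another 2 were added after the data were seen: leaving out both GFP shRNA replicate 1 and shRNA B replicate 1, and using the arrays without the name suffix alone. Same-numbered arrays of different constructs had correlations of their deviations from the construct means between -0.147 and 0.268 over genes, so the numbers were not taken to pair the samples.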

Additional observations from a re-analysis of the deposited data

Results flagged for a closer look

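Of 26 named genes, each tested for a lone array in the 5 controls and in the 6 knockdown arrays (52 groups), 2 were flagged by the distance of an extreme array from its neighbour, where chance flags about 5% of groups. For HES4, empty vector replicate 2 lay at 8.80, and the next control at 8.44. For CEBPG, GFP shRNA replicate 1 lay at 10.20, and the next control at 9.86. In both genes that array was the highest of the controls, and neither gene was called. GFP shRNA replicate 1 was also the brightest array over the 3000 brightest genes, and its part in the value of CEBPG was not tested.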

How the results depend on the processing

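None of the 11 called compact genes, 12 further falls and 2 rises reversed its change in the knockdown under the alternatives run, but without the filter on dim probe sets DPM3 and LOC100129942 came to -0.00 and 0.00, and CEBPG to -0.12. The count of compact genes called in the knockdown, 11, became 3 with no filter on dim probe sets, 21 with the higher floor, 7 after quantile normalization, 3 with the replicate number as a block and 0 with the name suffix as a block, without both end arrays, or with the unsuffixed arrays alone, and ran from 1 to 11 with 1 array left out. The count was within 1.5 times with the mean of probe sets (16) and with no trend (13), but the genes called were not the same. With the mean, FKBP1A, ZMYND19, NPTX2, RPUSD2 and TTC9 were not called. With no trend, TMSB10 (adjusted p = 0.0547), RPUSD2 (0.0532) and TTC9 (0.0725) were not called. For shRNA A, 1 became 2 with no filter, 4 with the higher floor, the mean or no trend, and 0 after quantile normalization or with the suffix block, and 0 to 1 with 1 array left out. For shRNA B, 1 became 11 with the higher floor, 5 with the mean, 2 with no trend, 0 with no filter, the replicate block, the suffix block or without both end arrays, and 0 to 1 with 1 array left out. Leaving out 1 array gave 0 to 1 between the Tat-SF1 shRNAs and 0 to 1 between the control constructs. Called probe sets, 1, became 58 with the higher floor, 10 with no trend, 0 with a filter at the table median, the suffix block, without both end arrays or with the unsuffixed arrays alone, and 0 to 2 with 1 array left out. The called splicing index, 1, became 0 with no filter, the mean, no trend, the replicate block, the suffix block or the unsuffixed arrays alone, and 0 to 8 with 1 array left out. The cause of these changes was not tested, beyond the fewer genes tested with the higher floor (313 compact genes) and the fewer arrays. The block was run although the numbers were not taken to pair the samples. Fits with an array left out kept 27 and lost 94 of the calls of the 11 genes. A value near the dim level may be compressed, which limits genes such as TTPA and the olfactory receptors, and the called genes TTC9 and RPUSD2.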

Other observations

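With the higher floor, where a gene value rests on the brightest probe sets alone, 21 of 313 compact genes were called in the knockdown, all of them lower, beside 3.4% of all genes called lower with that floor. The respiratory chain held 5 of these, NDUFA7 (-0.35), COX6B1 (-0.30), NDUFB7 (-0.29), COX8A (-0.21) and NDUFA8 (-0.21), all subunits of complex I or of cytochrome c oxidase. Of the compact subunits of oxidative phosphorylation, 20 had a value with that floor. The ribosomal proteins held RPL36 (-0.46, adjusted p = 0.0189) and, in mitochondria, MRPS24 (-0.32, adjusted p = 0.0249). CEBPG was called as well (-0.34, adjusted p = 0.0226), beside TMSB10, APRT and RAC3, which were also called with the lower floor. NPM3, a nucleoplasmin family chaperone, changed by -0.23, and DMAC1, an assembly factor of complex I, by -0.21.

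Some values differed with the floor. SHFM1, a small proteasome and BRCA2 partner, changed by -0.28 with the higher floor and by -0.09 with the lower one, and PAQR4 by -0.25 and -0.10. C14orf119 was called at -0.22 with the higher floor, and with the lower one its adjusted p was 0.984. H2AX changed by -0.18 with the higher floor and was not called (adjusted p = 0.109). ZMYND19 changed by -0.11 and was not called either (adjusted p = 0.344). NME3, FKBP1A, IGFBP2, NPTX2, RPUSD2 and TTC9 had no gene value with that floor. This floor was one of several alternatives, and the genes of this section were named after its values were seen.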
